A study of Mus musculus with 16 samples.

Results

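The 77 nuclear genes of mitochondrial ribosomal proteins were examined in mouse cerebral cortex. They are the listed genes named Mrpl or Mrps followed by a number, pseudogene names left out, and they make up 77 of the 20436 genes in the deposited tables. By their names and their known place in the particle, 50 encode proteins of the large subunit (Mrps30 and Mrps18a among them, whose proteins sit on that subunit), 26 encode proteins of the small subunit, and Mrps36 is counted apart because its protein has since been assigned to the alpha-ketoglutarate dehydrogenase complex. The genes lie on 17 chromosomes, and the span of 20 of them overlaps that of another protein-coding gene, so reads of those pairs could be shared if strand was not used in counting, which the sources used here do not give.

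The cortices came from mice of postnatal day 28 to 35 on the FVB.129P2-/Pde6b+ Tyrc-ch //AntJ background, which all groups shared. The 4 genotypes were wild type (WT), a knockout of Fmr1 (Fmr1 KO), a knockout of Cpeb1 (Cpeb1 KO) and a knockout of both genes (double knockout). Fmr1 and Cpeb1 each encode an RNA-binding protein. From each cytoplasmic lysate, made in the presence of cycloheximide and harringtonine, one portion gave ribosome-protected fragments (footprints) and the other gave rRNA-depleted RNA. Each genotype had 2 libraries of each assay, numbered 1 and 2, which made 8 RNA and 8 footprint libraries. The labels do not say whether the 2 libraries of a genotype came from separate animals, so p-values measure the spread between these libraries only, which may be technical.

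The mitochondrial ribosome translates the few messenger RNAs of the mitochondrial genome, which encode core subunits of the respiratory chain and ATP synthase. Its RNAs come from the mitochondrial genome, while all of its proteins are made by cytosolic ribosomes from nuclear genes and imported. Footprints on these 77 messenger RNAs therefore report their translation in the cytosol, and translation inside mitochondria was not analysed here. Cortex relies heavily on oxidative phosphorylation.

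The promoters of the members share short motifs that the choice of genes did not use. Windows of 300 bases, from 250 before to 50 after the start of the gene, were found for 68 of the 77 members in RefSeq sequence of build GRCm38.p6. The motif CCGGAAG, bound by factors of the ETS family such as GABPA, occurred on either strand in 25 of the 68 (36.8%), against 9.93% of the 27025 genes with a window. The motif of NRF1, a factor known for nuclear genes of mitochondrial proteins, occurred in 13 of 68 (19.1%) against 5.19% of all genes. The motif AAGATGGCG of YY1 occurred in 8 of 68 (11.8%) against 1.64%. At least 1 of these motifs was present in 40 of 68 members (58.8%) and in 15.1% of all genes. Such a match is a description of the sequence and no evidence of binding. The windows of Mrps26, Mrps12 and Mrps18c are shown because these genes passed the tests described further on and carry a motif, with motif letters in capitals. In Mrps26 (chr2:130563507-130563806, plus strand) an ETS motif precedes a pair of NRF1 motifs that overlap each other. Mrps12 (chr7:28741772-28742071, minus strand) and Mrps18c (chr5:100798509-100798808, plus strand) each hold 1 ETS motif.
Mrps26: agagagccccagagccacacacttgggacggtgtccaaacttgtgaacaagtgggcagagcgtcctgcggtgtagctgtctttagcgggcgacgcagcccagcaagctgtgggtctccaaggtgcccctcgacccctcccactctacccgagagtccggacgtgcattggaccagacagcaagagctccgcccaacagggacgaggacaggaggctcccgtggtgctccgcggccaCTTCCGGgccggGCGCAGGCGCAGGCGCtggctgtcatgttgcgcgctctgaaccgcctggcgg
Mrps12: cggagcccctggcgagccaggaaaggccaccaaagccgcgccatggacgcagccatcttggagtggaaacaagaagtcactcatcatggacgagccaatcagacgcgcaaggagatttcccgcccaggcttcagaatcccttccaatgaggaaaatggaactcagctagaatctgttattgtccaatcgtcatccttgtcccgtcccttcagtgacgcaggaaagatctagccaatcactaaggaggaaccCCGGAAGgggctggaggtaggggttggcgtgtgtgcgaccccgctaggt
Mrps18c: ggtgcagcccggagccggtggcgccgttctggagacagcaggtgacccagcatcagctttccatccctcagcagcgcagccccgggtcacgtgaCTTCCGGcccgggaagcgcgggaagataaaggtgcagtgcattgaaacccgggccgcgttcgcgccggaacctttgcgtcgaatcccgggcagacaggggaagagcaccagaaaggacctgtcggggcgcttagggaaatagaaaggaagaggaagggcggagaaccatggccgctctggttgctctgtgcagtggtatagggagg

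Mrpl46 and Mrps11, which encode a protein of the large and of the small subunit, lie head to head on chromosome 7 (Mrpl46 at chr7:78775341-78783089 and Mrps11 at chr7:78783131-78792988, GRCm38.p6), and their windows overlap. The window of Mrpl46 held none of the 3 motifs. That of Mrps11 (chr7:78782881-78783180, plus strand), shown for its single YY1 motif on the opposite strand in capitals, reads as follows.
Mrps11: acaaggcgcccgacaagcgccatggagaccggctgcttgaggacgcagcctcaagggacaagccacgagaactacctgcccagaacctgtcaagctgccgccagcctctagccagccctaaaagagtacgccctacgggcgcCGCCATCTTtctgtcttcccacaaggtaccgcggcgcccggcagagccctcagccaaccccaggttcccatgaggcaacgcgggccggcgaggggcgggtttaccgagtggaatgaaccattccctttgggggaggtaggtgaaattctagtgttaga

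All 77 members passed the filter on low counts in both assays. RNA libraries held 5423925 to 10246482 counts and footprint libraries 16239703 to 24973757, and the lowest count of any member was 55 in RNA and 192.15 in footprints (counts are estimates and need not be whole). Fmr1 and Cpeb1 were lower in every library of the genotypes that carry their knockout than in every other library of the same assay. Summed markers of excitatory neurons (5 of 5 listed, none at 0) ranged from 2065 to 2399 CPM (counts scaled to a common library size) in the RNA of the single knockouts and from 2461 to 3003 in WT and the double knockout. Those of astrocytes (4 of 4 listed) were at 323 and 337 in WT RNA and from 385 to 428 in the knockouts. In footprints these marker sums overlapped between the same pooled groups. Excitatory neuron markers ranged there from 3035 to 3553 CPM in the single knockouts and from 3039 to 3768 in WT and the double knockout. Astrocyte markers were at 431 and 509 in WT footprints and from 402 to 484 in the knockouts. Taken alone, both double-knockout footprint libraries (402 and 412) were below both WT libraries for astrocyte markers. The same held for oligodendrocyte markers (1892 and 1684 CPM against 2262 and 2425 in WT). It also held for markers of microglia (15.3 and 20.1 against 22.3 and 32.1) and interneurons. Striatum and choroid plexus markers were above WT in both libraries, and the other sets overlapped WT. Choroid plexus markers ranged from 14.3 to 236 CPM in RNA and from 19.5 to 148 in footprints. Of 4 listed red blood cell markers Hbb-bt was at 0. Whether cell composition had a part in the differences below was not tested, and in whole cortex fewer cells of a type and less RNA per cell cannot be told apart.

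Within WT cortex the members were expressed at moderate and fairly even levels. Levels between genes are compared as deposited TPM, which corrects for feature length. The mean RNA level of a member over the 2 WT libraries ran from 29.6 to 223 TPM with a median of 66.9, and the mean footprint level ran from 31.7 to 439 TPM with a median of 81.5. The SD of log2 level among members was 0.61 in RNA and 0.79 in footprints, against 2.16 and 2.57 among the 13027 genes tested in both assays. Cytosolic ribosomal protein genes stood higher, with medians of 466 TPM in RNA and 340 TPM in footprints over 77 genes, as did nuclear respiratory chain subunits with 363 and 414 TPM over 76 genes. The other parts of the mitochondrial translation machinery stood lower in RNA than the members: 11 translation factors had a median of 25.0 TPM and 22 assembly and rRNA modification factors a median of 22.5 TPM, whereas 6 mitoribosomal proteins that carry other names (Dap3 and Ptcd3 among them) had 84.3 TPM.

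Mrps33, a small protein of the small subunit, had the highest RNA level (223 ± 39.8 TPM; SD, n = 2), followed by Mrpl20 of the large subunit (191 ± 13.8). These first places do not differ beyond their spread. Next came Mrps21 (149 ± 23.9), Mrpl30 (137 ± 24.0) and Mrps14 (134 ± 0.714), which also cannot be ordered. At the low end stood Mrps2 (29.6 ± 1.36 TPM), Mrpl1 (33.0 ± 3.34), Mrps27 (33.4 ± 1.48), Mrps31 (35.4 ± 1.12) and Mrpl22 (36.4 ± 6.5). Neither subunit took one end of the order, and the median RNA level was 66.6 TPM for the large and 62.8 TPM for the small subunit.

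**Figure D1:**
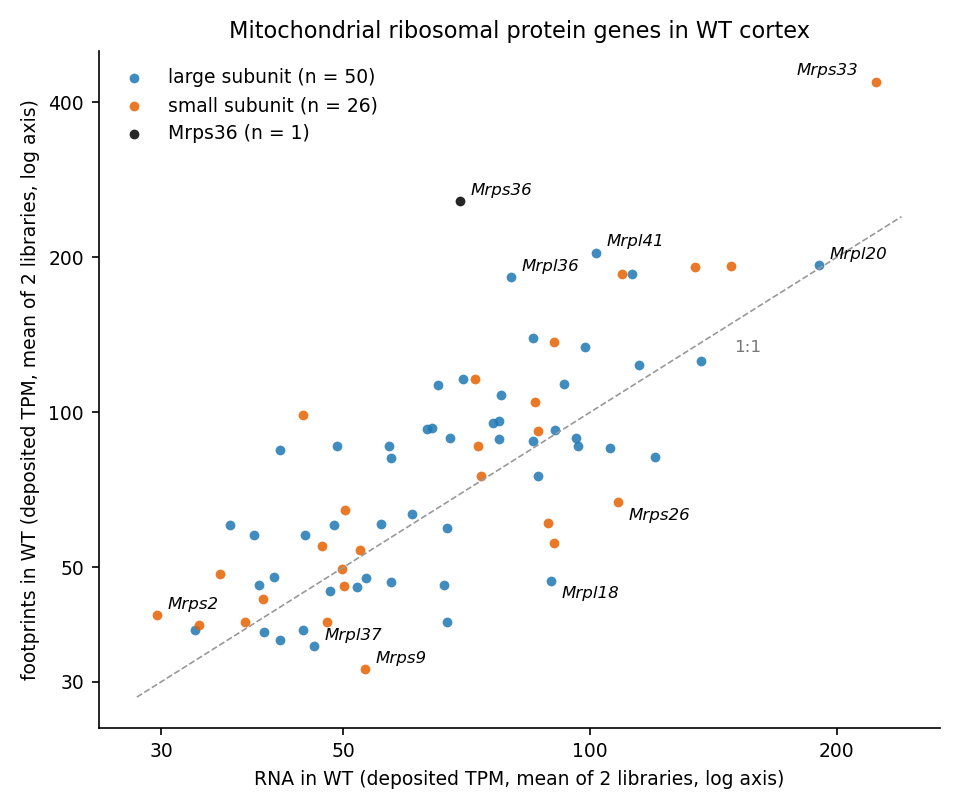
Levels of the 77 genes in WT cortex, RNA on the horizontal and footprints on the vertical axis, both as the mean deposited TPM of 2 libraries on log axes. Each point is a gene, coloured by the subunit of its protein, and the dashed line marks equal TPM. Mrps36 (257 footprint TPM at 69.3 RNA TPM) lies farthest above the line, and Mrpl18 (46.9 at 89.6) lies below it.

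Footprint and RNA levels ran together across the 77 genes (Pearson r = 0.765, Spearman rho = 0.738 on log2 TPM; genes of the same 4 WT libraries, which are not independent replicates). The ratio of footprint TPM to RNA TPM, a relative measure of ribosome load per messenger, had a median of 1.16 over the members. The same median was 0.653 over all 13027 genes and 0.986 over the 3852 of them with a coding length under 1000 nt. Members are short, with a median coding length of 576 nt against 1434 nt for all genes tested, and among them the ratio was higher in shorter genes (r = -0.494 between log2 length and log2 ratio, n = 77). Footprint features were 57 nt shorter than RNA features, which is a larger part of a short gene than of a long one. Whether this had a part in the ratios or in their relation to length was not tested. The ratio of members was reproducible between the 2 WT libraries (r = 0.867), which share the pipeline and the length of each gene.

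Mrps36 had the highest ratio, 3.34 and 4.12 in WT libraries 1 and 2. Mrpl36, the counterpart of a small bacterial large-subunit protein, had 2.73 and 1.96, Mrps6 had 2.56 and 1.96, and Mrpl50 had 1.93 and 2.11. Mrps33 had ratios of 2.66 and 1.43, although its scaled footprint counts were 64.8 and 66.1 CPM, and what sets its ratios apart was not tested. At the low end, Mrpl18 had ratios of 0.584 and 0.473, Mrpl2 0.562 and 0.614, Mrps9 0.614 and 0.580, Mrps26 0.664 and 0.576, and Mrps24 0.713 and 0.538. Each of these 5 low genes therefore lay below the member median in both libraries.

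Across all 8 libraries the order of members held. Correlations of log2 TPM over the 77 genes between any 2 libraries ran from 0.915 to 0.975 in RNA and from 0.948 to 0.990 in footprints. The coefficient of variation of a member over 8 libraries had its highest value at 25.5% in RNA (Mrpl12, whose protein belongs to the stalk of the large subunit) and at 35.7% in footprints (Mrpl55). Mrpl55 footprints were at 11.7 and 23.6 CPM in WT, 9.81 and 20.3 in Fmr1 KO, 15.6 and 13.01 in Cpeb1 KO, and 25.3 and 12.0 in the double knockout. The 2 libraries of WT, of Fmr1 KO and of the double knockout lay far apart, and no genotype stood clear of the others.

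The first comparison asked whether the RNA of the members changes when Fmr1, Cpeb1 or both are lost. In Fmr1 KO, 68 of 77 members lay above WT by their log2 change (54.1% of all genes did) and the median change was 0.17, against 0.02 over 13287 genes. In Cpeb1 KO 66 lay above WT (53.7% of all genes), with a median of 0.18 against 0.02. In the double knockout 42 lay above WT (49.7% of all genes), with a median of 0.02 against 0.00 over all genes. These 3 comparisons share the WT libraries. No single member passed the test in any of them (quasi-likelihood test of edgeR, Benjamini-Hochberg adjusted p under 0.05, where 0.00753%, 0% and 0.00753% of all genes were called), and DESeq2 also called 0. At an unadjusted p under 0.05 stood 5, 7 and 2 members, and 8.09%, 11% and 4.23% of all genes.

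The shift was uneven between libraries. The members took 0.202% and 0.220% of all RNA counts in WT libraries 1 and 2, 0.243% and 0.229% in Fmr1 KO, 0.249% and 0.225% in Cpeb1 KO, and 0.198% and 0.243% in the double knockout. Library 1 of both single knockouts was thus high and library 1 of WT and of the double knockout low, while library 2 of the double knockout was as high as the single knockouts. Taken by library number, the median log2 difference of members from WT was 0.24 and 0.09 in Fmr1 KO, 0.26 and 0.09 in Cpeb1 KO, and -0.07 and 0.12 in the double knockout. Both RNA libraries were above both WT libraries for 37 of 77 members in Fmr1 KO (22.6% of all genes) and for 37 in Cpeb1 KO (22.3% of all genes), and for 9 in the double knockout (14.2% of all genes). Both were below both WT libraries for 2 members in Fmr1 KO (18.7% of all genes), 0 in Cpeb1 KO (18.6% of all genes) and 6 in the double knockout (15.4% of all genes). Cytosolic ribosomal protein genes took 1.05% and 1.31% of RNA counts in WT, 1.55% and 1.40% in Fmr1 KO, 1.52% and 1.33% in Cpeb1 KO, and 1.09% and 1.38% in the double knockout, so their share moved with that of the members.

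**Figure D2:**
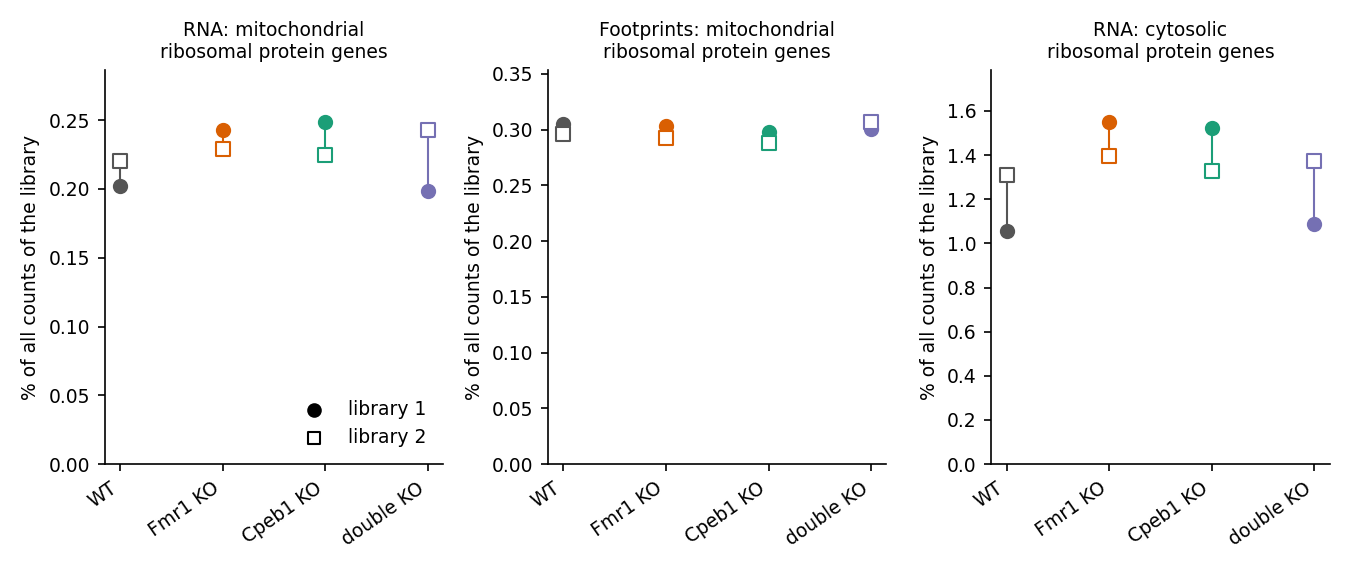
Share of all counts of a library, in percent, taken by the 77 mitochondrial ribosomal protein genes in RNA (left) and footprints (middle) and by cytosolic ribosomal protein genes in RNA (right). Filled circles are library 1 and open squares library 2 of each genotype, joined by a line, and axes start at 0. In RNA, library 1 of WT (0.202%) and of the double knockout (0.198%) lies lowest, and in footprints all 8 libraries lie between 0.288% and 0.307%.

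The shift was also shared with short genes in general. Other genes with a coding length under 1000 nt took 14.8% and 15.97% of RNA counts in WT, 16.7% and 15.9% in Fmr1 KO, 16.9% and 15.5% in Cpeb1 KO, and 14.3% and 16.4% in the double knockout. Over all 13287 genes the log2 change in RNA fell with log2 length in the single knockouts (r = -0.251 in Fmr1 KO and r = -0.216 in Cpeb1 KO; genes of the same libraries, with r = -0.00409 in the double knockout). Among genes of 450 to 600 nt, the median change in Fmr1 KO was 0.24 for the 16 members and 0.12 for all 758 genes. Among those of 600 to 800 nt it was 0.15 for 17 members and 0.09 for 1159 genes, and among those of 1000 to 1500 nt it was 0.07 for 10 members and 0.04 for 3044 genes. The member medians were the higher ones in these bins, by less than the distance between the medians of library 1 and library 2 in Fmr1 KO. With a correction for gene length the median change of members was 0.07 in Fmr1 KO and 0.06 in Cpeb1 KO. The part that length or library number had in the shift was not tested beyond these values.

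**Figure D3:**
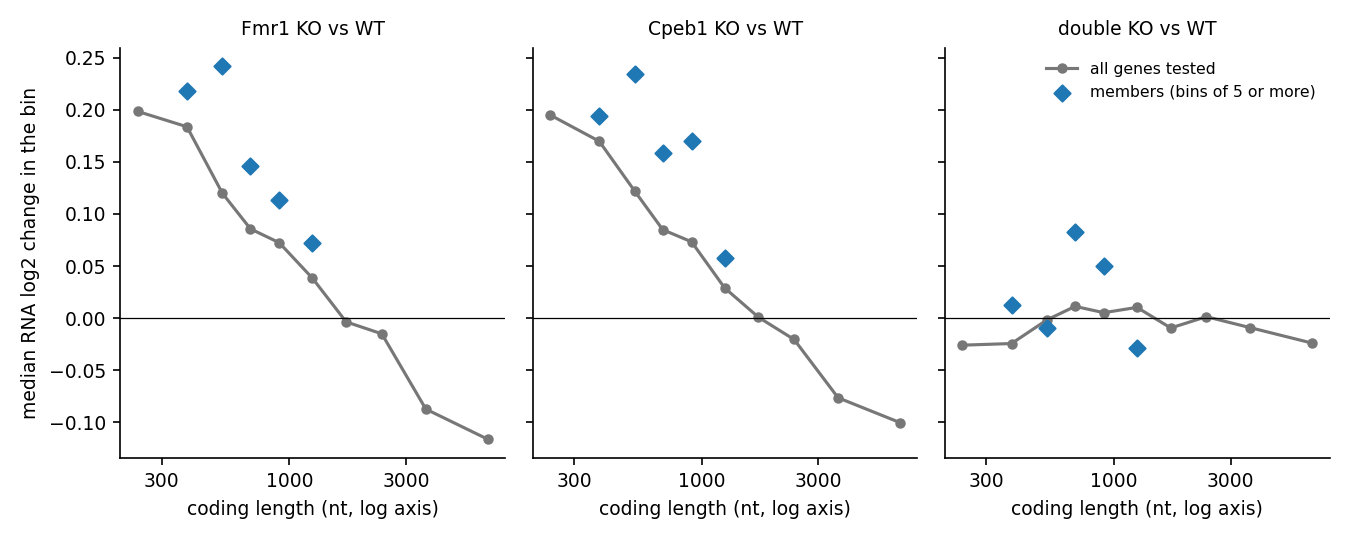
Median RNA log2 change in bins of coding length (log axis, nt), for Fmr1 KO, Cpeb1 KO and the double knockout against WT. Grey circles joined by a line are all genes tested, and blue diamonds are the mitochondrial ribosomal protein genes of bins with at least 5 of them. In both single knockouts short genes of either kind lie above 0, and in the double knockout the bins lie between -0.03 and 0.08.

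Mrpl46, which encodes a large-subunit protein without a bacterial counterpart, stood out by size of change in all 3 knockouts, though none of its changes passed the test. In WT libraries 1 and 2 the RNA level was 23.0 and 27.2 CPM, with 34.8 and 32.6 in Fmr1 KO, 41.5 and 36.0 in Cpeb1 KO, and 31.7 and 35.9 in the double knockout. Every knockout library was above both WT libraries. The log2 changes were 0.44 ± 0.155 (SE) in Fmr1 KO, 0.64 ± 0.154 in Cpeb1 KO and 0.44 ± 0.156 in the double knockout, with edgeR adjusted p of 0.557, 0.248 and 0.966. Its footprints were at 29.7 and 26.1 CPM in WT, 28.6 and 26.9 in Fmr1 KO, 33.9 and 34.6 in Cpeb1 KO, and 32.7 and 31.7 in the double knockout. They were thus higher in both genotypes that lack Cpeb1, without overlap with WT or Fmr1 KO, by 0.30 ± 0.0936 in Cpeb1 KO (edgeR, unadjusted p = 0.00757, adjusted p = 1) and 0.21 ± 0.0952 in the double knockout (adjusted p = 0.234). Cpeb1, the gene knocked out in both, lies on the same chromosome at chr7:81347026-81458001, and whether the knockout allele or its flanking region has a part in these values was not tested. Mrps11, its head-to-head neighbour, had RNA levels of 18.6 and 18.4 CPM in WT, 21.97 and 24.0 in Fmr1 KO, 24.1 and 22.5 in Cpeb1 KO, and 17.3 and 24.8 in the double knockout, where the libraries straddle WT.

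Beside Mrpl46, the members with the largest positive RNA changes were Mrpl55 (0.48 in Fmr1 KO, 0.64 in Cpeb1 KO), Mrpl34 (0.43 in Fmr1 KO, 0.48 in the double knockout) and Mrps12 (0.51 in Cpeb1 KO, 0.43 in the double knockout). Mrpl34 encodes a small basic protein of the large subunit, and Mrps12 the counterpart of the bacterial protein near the decoding site. Several of these values moved widely when 1 library was left out: Mrps12 ran from 0.06 to 0.87 in Cpeb1 KO and from 0.16 to 0.69 in the double knockout, and Mrpl34 ran from 0.10 to 0.85 in the double knockout. The largest negative RNA changes were those of Mrpl37 (-0.14), Mrpl10 (-0.11) and Mrps9 (-0.10) in Fmr1 KO and of Mrpl10 (-0.30), Mrpl14 (-0.12) and Mrpl36 (-0.06) in Cpeb1 KO. In the double knockout they were Mrps23 (-0.28), Mrpl52 (-0.26) and Mrps22 (-0.25). None of these passed the test (edgeR), and the lowest of their adjusted p-values was 0.326. The sign turned when 1 library was left out for Mrpl10 in Fmr1 KO and for Mrpl14 and Mrpl36 in Cpeb1 KO. By origin, the median RNA change in Fmr1 KO was 0.18 for 29 large-subunit genes with a bacterial counterpart and 0.19 for 20 without. It was 0.22 and 0.15 for 16 and 10 such genes of the small subunit. Mrpl55 of the large subunit was on neither list and is left out of these medians. In Cpeb1 KO the same medians were 0.16, 0.19, 0.21 and 0.18. Differences between these groups were not tested.

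The single knockouts were also pooled and set against WT with the double knockout, 4 libraries against 4. A gene that is lower in the double knockout than in WT can pass this contrast too. A call therefore does not show that a difference of the single knockouts is absent from the double knockout. Here 3 of 77 members were called, all higher in the single knockouts, where 7.31% of all 13287 genes were called and 2.22% were called as higher (edgeR). Of the members 65 lay above 0 (54.7% of all genes), with a median log2 change of 0.15 against 0.03, and by library number the median was 0.28 and 0.02. All 4 single-knockout libraries were above all 4 others for 8 members (6.04% of all genes), namely Mrpl1, Mrpl35, Mrpl49, Mrpl50, Mrps17, Mrps18c, Mrps31 and Mrps35, and below them for 0 members (6.12% of all genes). By the same test, 27 of 78 cytosolic ribosomal protein genes and 4 of 76 respiratory chain genes were called as higher, while 77 and 74 of them lay above 0.

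Mrpl50, on chr4:49512597-49521083, encodes a protein of the large subunit without a bacterial counterpart. RNA of the gene stood at 13.3 and 12.3 CPM in WT, 19.6 and 14.5 in Fmr1 KO, 20.5 and 14.6 in Cpeb1 KO, and 11.7 and 10.98 in the double knockout. The groups do not overlap, with library 1 of each single knockout well above library 2. The change was 0.52 ± 0.123 (edgeR adjusted p = 0.0233). Its footprints did not follow: they were at 31.9 and 31.9 CPM in WT, 32.9 and 26.1 in Fmr1 KO, 36.5 and 27.3 in Cpeb1 KO, and 27.2 and 27.5 in the double knockout, a pooled change of 0.04 ± 0.0988 (edgeR adjusted p = 0.935).

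Mrps18c, on chr5:100798759-100804467, encodes 1 of 3 related counterparts of a single bacterial small-subunit protein, of which this is the one on the small subunit in the bacterial position. For WT its RNA measured 20.3 and 19.1 CPM, with 26.9 and 20.6 in Fmr1 KO, 28.2 and 24.2 in Cpeb1 KO, and 19.4 and 17.2 in the double knockout. The groups do not overlap, though Fmr1 KO library 2 and WT library 1 are close. The change was 0.40 ± 0.106 (edgeR adjusted p = 0.0359), and for its relatives Mrps18a and Mrps18b it was 0.20 ± 0.0964 and 0.05 ± 0.103 (adjusted p = 0.21 and 0.799). Footprints of Mrps18c were at 38.7 and 38.2 CPM in WT, 36.1 and 35.2 in Fmr1 KO, 38.8 and 35.3 in Cpeb1 KO, and 31.0 and 29.8 in the double knockout. Both double-knockout libraries were the lowest, with a change from WT of -0.34 ± 0.0892 that did not pass the test (edgeR adjusted p = 0.0635). The change was -0.37 without WT library 1 and -0.31 without WT library 2.

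Mrps35, on chr6:147042728-147070906, encodes a small-subunit protein. In WT libraries 1 and 2 the RNA level was 24.3 and 24.2 CPM, with 29.5 and 29.3 in Fmr1 KO, 33.1 and 33.4 in Cpeb1 KO, and 23.0 and 27.4 in the double knockout. The 2 libraries agreed closely except in the double knockout, and the groups do not overlap. The change was 0.34 ± 0.0996 (edgeR adjusted p = 0.0488). In the authors' deposited table for this contrast these same 3 members were the called ones, at adjusted p of 0.0137, 0.0312 and 0.0457. That table rests on the same libraries and called 1372 of 15086 genes.

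Mrps35 was called in 1 of 15 alternatives only (without double-knockout library 2), Mrps18c in 6 and Mrpl50 in 9, and all 3 kept their direction in these 15. DESeq2 called Mrpl50 only. Mrps18c was also lost without Cpeb1 KO library 2. Without library 1 of any 1 of the 4 genotypes no member was called, and without library 2 of the double knockout 8 were. The share of all genes called in these fits is not given here. The counts are therefore not read as a result about the members. With a correction for gene length only Mrpl50 was called, and without the replicate block, or when the same contrast was taken in the fit of 4 genotypes, none was. Of the related factors, Tfam and Slirp, which act in mitochondrial transcription and in messenger stability, were called as higher in the pooled contrast, 2 of 15 genes of transcription and RNA handling, of which 12 lay above 0 (2.22% of all genes were called as higher). Tfam RNA had 25.5 and 24.7 CPM in WT, 31.8 and 29.4 in Fmr1 KO, 32.0 and 27.9 in Cpeb1 KO, and 20.4 and 21.95 in the double knockout (0.39 ± 0.105, edgeR adjusted p = 0.0371). None of the 11 translation factors, 22 assembly factors or 6 proteins under other names was called in RNA, although 10, 16 and 6 of them lay above 0.

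**Figure D4:**
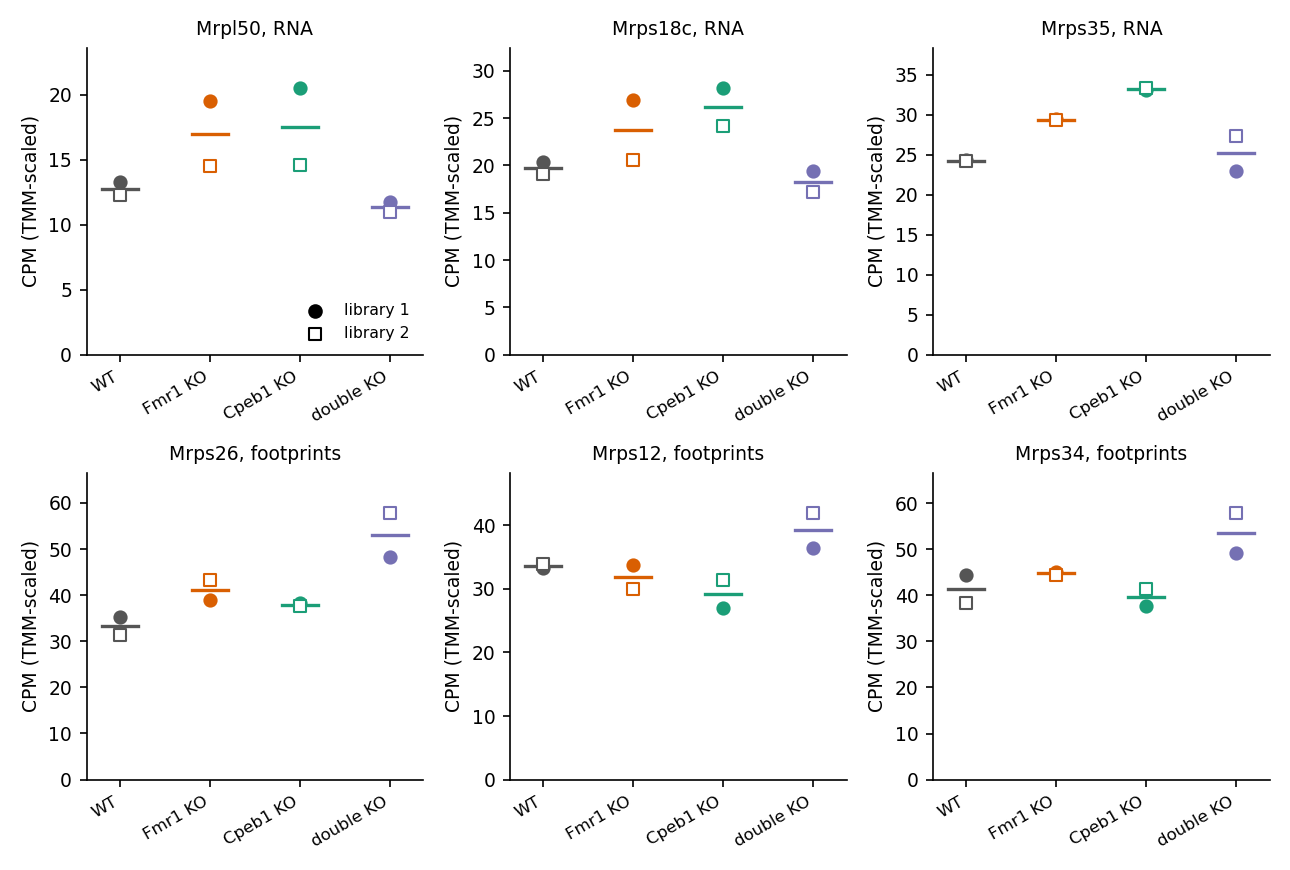
CPM (scaled by TMM, axes from 0) of the 6 members that passed a test, by genotype: Mrpl50, Mrps18c and Mrps35 in RNA (upper row) and Mrps26, Mrps12 and Mrps34 in footprints (lower row). Filled circles are library 1, open squares library 2, and bars their mean. Single-knockout libraries lie highest in the upper row, and both double-knockout libraries lie highest in the lower row.

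The next comparison asked the same of ribosome footprints, where the members as a group barely moved. They took 0.288% to 0.307% of footprint counts in the 8 libraries. The median log2 change from WT was -0.01 in Fmr1 KO, -0.05 in Cpeb1 KO and 0.04 in the double knockout, with all genes at 0.00 in each, and 33, 24 and 48 of the 77 members lay above 0 (51.4%, 49.5% and 49.8% of all genes). Against 0.0581% and 0.0799% of all genes, 0 members were called in Fmr1 KO and Cpeb1 KO (edgeR; 0 in DESeq2), with 1 and 3 at an unadjusted p under 0.05 (5.09% and 3.88% of all genes). Footprints of 20 members were lower in both Cpeb1 KO libraries than in both WT libraries (14.4% of all genes) and those of 3 were higher (15.5% of all genes), so the low side prevailed in Cpeb1 KO. The most negative changes were those of Mrpl55 (-0.21), Mrpl16 (-0.15) and Mrpl9 (-0.13) in Fmr1 KO and of Mrpl55 (-0.26), Mrpl41 (-0.24) and Mrps2 (-0.21) in Cpeb1 KO. In the double knockout the groups parted in both directions, with 26 members above and 20 below WT in every library (25.7% and 26.7% of all genes).

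Mrps26, a small-subunit protein gene on chr2:130563757-130565394, was the only member called in the double knockout against WT, where 2.65% of all 13774 genes were called and 1.5% were called as higher (edgeR). Its footprints were at 35.2 and 31.4 CPM in WT, 39.0 and 43.4 in Fmr1 KO, 38.2 and 37.7 in Cpeb1 KO, and 48.3 and 57.9 in the double knockout. All 6 knockout libraries were above both WT libraries and both double-knockout libraries were above all others. The change was 0.67 ± 0.107 in the double knockout (edgeR adjusted p = 0.0118), 0.30 ± 0.107 in Fmr1 KO (adjusted p = 0.888) and 0.19 ± 0.107 in Cpeb1 KO (adjusted p = 1). RNA of the gene stood at 41.6 and 42.9 CPM in WT, 49.4 and 43.8 in Fmr1 KO, 54.2 and 47.3 in Cpeb1 KO, and 39.3 and 54.6 in the double knockout, where the 2 libraries fall on either side of WT. The change in translational efficiency, which is the log2 change of footprints less that of RNA, was 0.51 ± 0.204 and did not pass the test (edgeR, unadjusted p = 0.0236, adjusted p = 1). In the authors' deposited table for the double knockout against WT, which called 743 of 15169 genes, Mrps26 footprints were called as higher (adjusted p = 4.26e-06). The call was lost without double-knockout library 2 (edgeR adjusted p = 0.154) and kept in 10 of 11 alternatives. Without WT library 1 the change of Mrps26 was 0.82, and without WT library 2 it was 0.52. The ratio of footprints to RNA of Mrps26 was low in WT, as given above, and the same WT libraries enter its change. The promoter of Mrps26 holds both NRF1 and ETS motifs, as do those of Mrpl17, Mrpl57 and Mrps21, which were not called.

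Against Cpeb1 KO, footprints of 3 members were higher in the double knockout, where 5.6% of all genes were called and 3% were called as higher (edgeR). All 3 belong to the small subunit, although the median change was 0.05 for small-subunit genes and 0.09 for large-subunit genes. Mrps26 differed by 0.48 ± 0.106 (adjusted p = 0.0256), Mrps34 by 0.43 ± 0.107 (adjusted p = 0.0367) and Mrps12 by 0.42 ± 0.108 (adjusted p = 0.0419). Each of the 3 calls was lost when any 1 library of the 2 genotypes was left out, and without the replicate block. Of the members 51 lay above 0 (48.2% of all genes), with a median of 0.07 against -0.01.

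Mrps34, on chr17:24895120-24896289, had footprints at 44.4 and 38.3 CPM in WT, 45.1 and 44.5 in Fmr1 KO, 37.8 and 41.4 in Cpeb1 KO, and 49.2 and 57.9 in the double knockout. For WT its RNA measured 31.8 and 31.2 CPM, with 38.2 and 27.0 in Fmr1 KO, 35.8 and 25.1 in Cpeb1 KO, and 30.8 and 35.6 in the double knockout. The footprints were highest in the double knockout without overlap, whereas its RNA overlapped between genotypes. Against WT its footprint change was 0.37 ± 0.107 (edgeR adjusted p = 0.0818). It was 0.54 without WT library 1 and 0.21 without WT library 2. In the authors' deposited table of the double knockout against WT, Mrps34 was called as higher, where 743 of 15169 genes were called.

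Mrps12, on chr7:28739641-28741821, had footprints at 33.3 and 33.9 CPM in WT, 33.8 and 30.0 in Fmr1 KO, 26.9 and 31.5 in Cpeb1 KO, and 36.5 and 42.0 in the double knockout. In WT libraries 1 and 2 the RNA level was 19.9 and 25.3 CPM, with 25.9 and 31.5 in Fmr1 KO, 35.5 and 27.0 in Cpeb1 KO, and 24.2 and 37.1 in the double knockout. Cpeb1 KO library 1 had the lowest footprints of all, while library 2 overlapped Fmr1 KO, and RNA in both Cpeb1 KO libraries was above WT. In Cpeb1 KO its translational efficiency change of -0.69 ± 0.246 was the most negative of any member after that of Mrpl55 (edgeR adjusted p = 0.48). In the authors' deposited table of that comparison Mrps12 was the only called member, lower in Cpeb1 KO (adjusted p = 0.0186). That table called 359 of 14546 genes. Among related genes Gadd45gip1, a large-subunit protein under another name, was also called as higher in the double knockout against Cpeb1 KO (0.37 ± 0.0975, edgeR adjusted p = 0.0476).

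At the negative end of the double knockout against WT stood Mrps18c, Mrpl30 (-0.29 ± 0.0883, adjusted p = 0.0927) and Mrpl41 (-0.29 ± 0.0838, adjusted p = 0.0834; edgeR). Footprints of Mrpl41, a large-subunit protein without a bacterial counterpart, were at 63.3 and 62.7 CPM in WT, 59.4 and 56.2 in Fmr1 KO, 53.6 and 53.4 in Cpeb1 KO, and 53.3 and 49.9 in the double knockout. Every knockout library was below both WT libraries, and in Cpeb1 KO the change was -0.24 ± 0.0829 (edgeR, unadjusted p = 0.0142, adjusted p = 1). In the authors' deposited table, where 743 of 15169 genes were called, Mrpl41 was called as lower in the double knockout (adjusted p = 0.0478). Its RNA, at 24.2 and 27.8 CPM in WT and 21.0 and 26.9 in the double knockout, overlapped between these genotypes.

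Against Fmr1 KO, 0 members were called in the footprints of the double knockout (0.334% of all genes; edgeR, 0 in DESeq2), with 13 at an unadjusted p under 0.05 (15.9% of all genes). There 44 members lay above 0 (50.1% of all genes). When only these 2 genotypes were fitted the calls were Mrpl36, Mrpl52 and Mrps26. The share of all genes called in that fit is not given here, so these calls are not read as a result about the members. In the authors' deposited table, which called 356 of 15169 genes, the only called member was Mrps26 (adjusted p = 0.0454). In the pooled contrast of footprints 0 members and 0% of genes were called (edgeR; 0 members in DESeq2), with 4 members at an unadjusted p under 0.05 (6.95% of all genes), all lower in the single knockouts, and 28 members above 0 (50.2% of all genes). The authors' deposited table for the double knockout against Cpeb1 KO called 1173 of 15169 genes. Among them were 8 of the 77 members, all higher, namely Mrpl34, Mrpl36, Mrpl38, Mrpl43, Mrps5, Mrps12, Mrps26 and Mrps34.

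**Figure D5:**
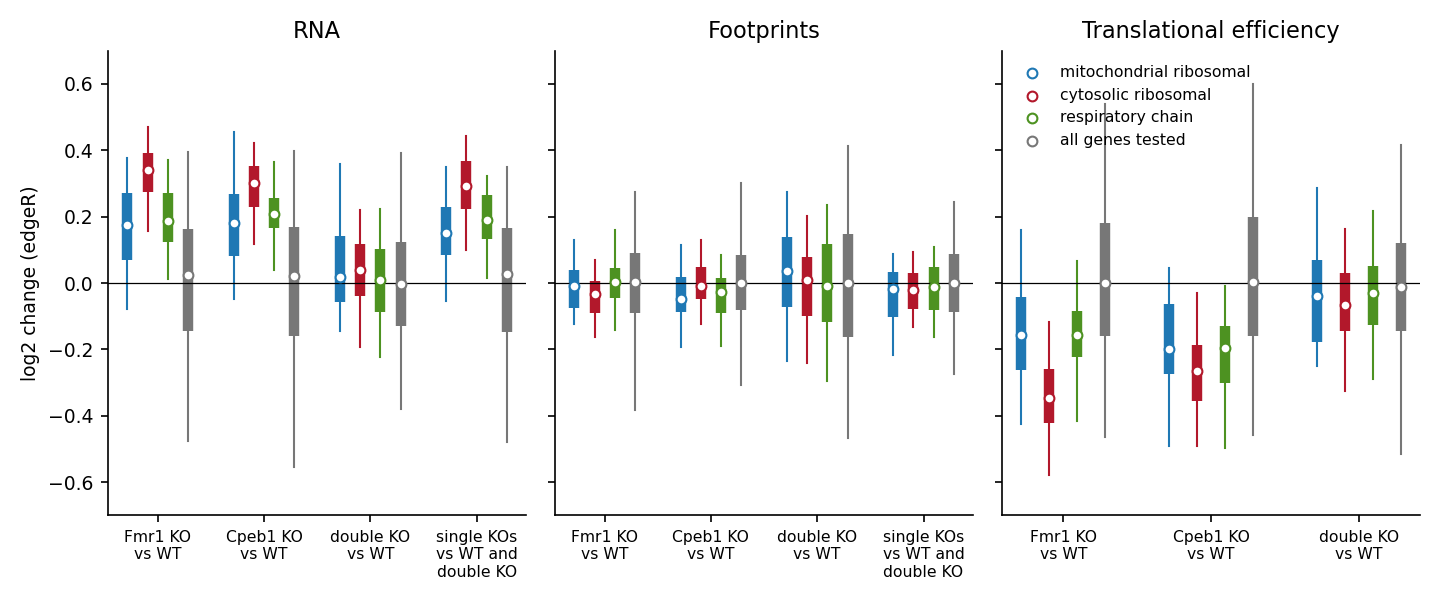
Log2 change (edgeR) in RNA, footprints and translational efficiency for mitochondrial ribosomal, cytosolic ribosomal and respiratory chain genes and for all genes tested. Circles are medians, thick bars the middle 50% and thin lines the middle 90% of genes, which is a spread over genes and not an error. RNA medians of the 3 lists lie above 0 in both single knockouts, and translational efficiency medians lie below 0.

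The last comparison asked whether the footprint change matches the RNA change. Translational efficiency of the members had a median log2 change of -0.16 in Fmr1 KO, -0.20 in Cpeb1 KO and -0.04 in the double knockout, against 0.00, 0.00 and -0.01 over 13027 genes. It lay above 0 for 12, 9 and 29 of the 77 members (50.1%, 50.4% and 47.6% of all genes). No member was called (edgeR interaction of assay and genotype; 0.0154%, 0% and 0.00768% of all genes; 0 members in DESeq2), and 5, 7 and 2 stood at an unadjusted p under 0.05 (6.99%, 8.35% and 3.14% of all genes). Since 1 lysate gave both assays, a fit with a block for each genotype and number was also made, and 0 members were called there too, with medians of -0.15, -0.20 and -0.05 (edgeR). By library number the median was -0.24 and -0.09 in Fmr1 KO, -0.30 and -0.14 in Cpeb1 KO, and 0.04 and -0.08 in the double knockout. With a correction for gene length it was -0.06, -0.10 and -0.02, and without library 1 of WT it was -0.06, -0.11 and 0.02. Cytosolic ribosomal protein genes had medians of -0.35, -0.26 and -0.07, and respiratory chain genes of -0.16, -0.20 and -0.03, so the members were not apart from either in direction. The RNA values of the same libraries enter these changes with opposite sign, and footprint medians were near 0.

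The members with the lowest translational efficiency changes were Mrpl55 (-0.67 ± 0.543), Mrpl50 (-0.52 ± 0.214) and Mrpl53 (-0.43 ± 0.246) in Fmr1 KO, and Mrpl55 (-0.87 ± 0.542), Mrps12 and Mrps35 (-0.49 ± 0.202) in Cpeb1 KO. In the double knockout the lowest were Mrpl16 (-0.36), Mrpl1 (-0.28) and Mrps31 (-0.28). The highest were Mrpl37 (0.28), Mrpl10 (0.27) and Mrps26 (0.18) in Fmr1 KO, Mrpl10 (0.34), Mrpl37 (0.18) and Mrpl40 (0.17) in Cpeb1 KO, and Mrps26 (0.51), Mrpl52 (0.50) and Mrpl40 (0.44) in the double knockout. The edgeR adjusted p of each was at least 0.48. By subunit, the median change in Cpeb1 KO was -0.19 over 50 genes of the large and -0.24 over 26 genes of the small subunit, and in Fmr1 KO it was -0.16 and -0.15.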

How the data were processed

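The authors' gene tables of 16 libraries from mouse cortex, 8 of RNA and 8 of footprints, were analysed, grouped by the genotype, assay and number in their titles. Per the file headers these tables come from RSEM. The deposited expected counts are estimates per gene and are not scaled, and the deposited TPM are scaled by the authors within a library. The submitters' processing notes name cutadapt, Bowtie2, TopHat2, RSEM and DESeq2 and build mm10, with no versions or order. The 69 members with 1 transcript all had lengths that are multiples of 3, so features appear to be coding sequences, and footprint features were 57 nt shorter. The authors' deposited tables also give log2 changes with adjusted p-values, by DESeq2 and Xtail per the series' design text.

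Expected counts were rounded and tested with edgeR 4.0.16 (R 4.3.3): TMM, filterByExpr with a minimum count of 10, quasi-likelihood test, Benjamini-Hochberg adjustment over all genes tested (13287 in RNA, 13774 in footprints, 13027 for translational efficiency), called at adjusted p under 0.05. Each model took all 8 libraries of its assay (16 for the interaction of assay and genotype), with the library number as a block. The pooled contrast used a fit of 2 groups. CPM are TMM-scaled, and differences by library number used log2 CPM with a prior count of 2. Errors of log2 changes are SE. Alternatives were DESeq2 1.42.0, other scaling, filters, models, a correction for gene length, and leaving out libraries. Named genes were the called ones, the 3 largest changes each way among members with a mean of at least 50 counts, and the 5 highest and lowest levels and ratios. Others (Mrps11, Mrps18a, Mrps18b and library-wise examples) were added after their values were seen. Members, lists and tests were chosen with earlier results of these data known. The NRF1 motif searched allows any base at 1 position. Gene positions, matched for 77 of 77 members, and promoters are from RefSeq, GRCm38.p6.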

Additional observations from a re-analysis of the deposited data

Results flagged for a closer look

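In RNA, 2 members had a library far from the other 3 in the pooled group of single knockouts. Cpeb1 KO library 2 had Mrpl35 at 23.4 CPM, below the other 3 single-knockout libraries, and Mrpl55 at 16.9 CPM, above them. Groups of 4 libraries were examined in 56 cases, and chance alone marks about 1 in 20.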

How the results depend on the processing

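Of the 508 values of named members under alternatives other than leaving out a library, 508 kept their direction. The count of members called in the pooled RNA contrast (3) was 1 with DESeq2, 1 with a correction for gene length and 0 in the fit of 4 genotypes. Footprint calls in the double knockout against Cpeb1 KO (3) became 5 without a filter and 8 when only these 2 genotypes were fitted. Against Fmr1 KO they became 3 in the fit of 2 genotypes. How many of all genes were called under each alternative, leaving out a library included, is not given here. A change in the number of members called is therefore not read as a result about the members. Median RNA change in Cpeb1 KO was 0.063 with the length correction. Median footprint change in Cpeb1 KO (-0.048) was -0.054 with DESeq2, -0.054 with median-ratio size factors, -0.055 without a filter and -0.040 with the length correction. The cause of these moves was not tested.

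Library numbers were shared between genotypes, but the labels do not say what a number stands for, and deviations of same-numbered libraries correlated weakly (-0.0446 to 0.293 in RNA and -0.0748 to 0.334 in footprints). Within a genotype, the difference between libraries 1 and 2 in RNA was also set against that in footprints. Over genes these differences correlated at 0.0129 to 0.173, which is not a correlation of RNA with footprint levels. Without the replicate block, calls were 0 in the pooled RNA contrast and 0 in footprints of the double knockout against Cpeb1 KO.

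Leaving out 1 library at a time gave 0 to 8 members in the pooled RNA contrast, 0 to 1 in RNA of Cpeb1 KO (Mrps12, without its library 2), 0 to 6 in footprints of the double knockout against WT (6 without WT library 1, 0 without double-knockout library 2) and 0 to 0 against Cpeb1 KO. Medians ran from 0.082 to 0.24 (RNA, Fmr1 KO), 0.058 to 0.27 (RNA, Cpeb1 KO), -0.084 to 0.16 (RNA, double knockout), -0.022 to 0.014 (footprints, Fmr1 KO), -0.062 to -0.0023 (footprints, Cpeb1 KO), -0.015 to 0.092 (footprints, double knockout against WT), 0.012 to 0.14 (footprints, double knockout against Cpeb1 KO), -0.010 to 0.092 (footprints, double knockout against Fmr1 KO), -0.042 to -0.0039 (footprints, pooled) and -0.14 to 0.10 (translational efficiency, double knockout). Signs turned for Mrpl10 (RNA, Fmr1 KO; -0.30 to 0.070), Mrpl14 (RNA, Cpeb1 KO; -0.28 to 0.0092), Mrpl36 (RNA, Cpeb1 KO, -0.33 to 0.16, and pooled, -0.13 to 0.041) and Mrpl55 (footprints, Fmr1 KO, -0.89 to 0.45, and Cpeb1 KO, -0.78 to 0.35). They also turned in translational efficiency for Mrpl10 (Fmr1 KO, -0.10 to 0.65, and Cpeb1 KO, -0.025 to 0.72) and Mrpl40 (Cpeb1 KO, -0.023 to 0.30). The common dispersion was 0.0107 in RNA and 0.00586 in footprints, and RNA libraries were the shallower ones; neither was weighed as a limit.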
